A study of Mus musculus with 6 samples.

Results

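The AP-1 family is a set of transcription factor genes whose products bind DNA in pairs through a basic region and a leucine zipper. It was followed here through 9 genes, Fos, Fosb, Fosl1, Fosl2, Jun, Junb, Jund, Batf and Maff, picked by gene symbol from the 54532 genes of the deposited count table. All 9 had a row, and all 9 passed the filter on low counts that left 16471 genes for testing. The tissue was the epidermis of newborn mice, separated from fat and dermis by dissection and an overnight enzyme (Dispase II) step, and total RNA was sequenced. Of the libraries, 3 carry the genotype label Paxbp1 knockout and 3 the label Wildtype. No promoter, Cre line, deleted exon, strain or exact age is named in the labels, and the isolation protocol is the same text for both groups. Nothing says that the libraries are from separate animals, so a p-value here measures the spread between libraries, which may be technical.

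Jun proteins pair with each other or with Fos proteins, while Fos proteins need a Jun partner. Several of these genes, among them Fos, Fosb, Jun and Junb, are immediate early genes, which are switched on within minutes of a growth factor, wound or stress signal, in large part through MAP kinases. In the epidermis AP-1 is known for its part in differentiation, wound repair and inflammation. Batf and the small Maf protein Maff are relatives that pair with other zipper proteins and lack a transactivation domain.

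Paxbp1 itself had 2007, 1159 and 1467 counts in wild type replicates 1 to 3, against 2370, 1127 and 1125 in the knockout-labelled libraries. The target was therefore not lower, though counts summed over a gene can miss the loss of single exons, and all directions below are those of the labels. Totals ran from 16315317 to 17816327 counts. Levels are given in CPM, counts per 1e6 scaled by TMM factors. Keratinocyte markers were lower for 9 of 10 genes, with a summed level of 69974 to 108670 CPM in the wild type and 4673 to 12906 CPM in the knockout-labelled libraries. The summed macrophage markers stood at 169 to 186 and 9990 to 18773 CPM (10 of 10 genes higher), and the summed fibroblast markers at 772 to 819.8 and 3666 to 9517 CPM (8 of 9 higher, 1 lower). Of 10 neutrophil markers 6 were tested and 6 were higher, with Ly6g and Retnlg at 0 in the wild type. The summed neutrophil level was 1.59 to 3.06 and 939.8 to 1754 CPM, with Csf3r alone at 1.75 ± 0.471 and 675 ± 115 CPM. Of 10 endothelial markers 6 were tested and 5 were higher. Markers with almost no wild type reads passed the filter through the knockout-labelled libraries and could only come out higher. Melanocyte markers had 2 higher and 3 lower of 6. Among all 16471 genes tested, 28.7% were higher and 25.1% lower, which is the scale for each of these marker counts. In bulk tissue, fewer cells of a type and less RNA per cell cannot be told apart, and the part of these marker differences in the AP-1 values was not tested.

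The sequence just before the start site is shown for 4 members that were higher in the knockout-labelled libraries, so that elements close to the start can be read. RefSeq windows of GRCm38.p6, the same assembly as mm10, matched 8 of the 9 members, with 10 windows in all. No window was matched for Fosl1. Each sequence ends before the start sites of both RefSeq and the deposited table and runs 5′ to 3′ on the strand of the gene. Capitals mark a TGACATCA element, a form of the AP-1 and CREB binding sequence, in Jun and a TATAAA box in Fos. The stretches are chr4:95052223-95052472 (minus strand) for Jun, chr8:84978749-84978998 (minus strand) for Junb, chr12:85473640-85473889 (plus strand) for Fos and chr12:85686470-85686668 (plus strand) for Batf.
Jun: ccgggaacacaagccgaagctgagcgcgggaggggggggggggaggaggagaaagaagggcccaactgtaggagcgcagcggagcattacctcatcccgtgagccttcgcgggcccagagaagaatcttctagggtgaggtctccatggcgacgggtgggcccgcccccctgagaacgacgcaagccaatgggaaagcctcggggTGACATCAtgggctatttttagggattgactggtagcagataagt
Junb: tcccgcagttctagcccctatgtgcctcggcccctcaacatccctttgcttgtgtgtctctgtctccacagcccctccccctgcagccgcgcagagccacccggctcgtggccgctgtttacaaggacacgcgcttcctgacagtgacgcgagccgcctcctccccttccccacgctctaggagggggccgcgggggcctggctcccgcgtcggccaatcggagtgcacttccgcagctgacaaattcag
Fos: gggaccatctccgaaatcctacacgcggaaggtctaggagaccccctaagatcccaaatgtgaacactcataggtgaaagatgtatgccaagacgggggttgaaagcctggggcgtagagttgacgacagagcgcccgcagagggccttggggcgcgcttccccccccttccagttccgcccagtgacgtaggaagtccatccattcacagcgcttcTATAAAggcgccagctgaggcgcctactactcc
Batf: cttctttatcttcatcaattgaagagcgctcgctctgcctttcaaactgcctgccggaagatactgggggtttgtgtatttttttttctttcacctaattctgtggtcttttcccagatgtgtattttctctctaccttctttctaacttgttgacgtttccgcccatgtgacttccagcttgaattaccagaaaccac
Motifs were searched on both strands over the 250 bases before each start. The Jun element lay 45 to 38 bases before the start, and TGACATCA lay at the same distance in 1 of the Maff windows. TGACATCA stood in 2.93% of the 32851.0 RefSeq windows. The palindromic element TGACGTCA was found 29 to 22 bases before another Maff start and in 1.55% of all windows. The classical AP-1 element TGACTCA was in 0 of the 10 member windows and in 4.46% of all windows. The CArG box, the element of serum response factor, was in 0 of the 10 and in 1.47% of all windows; elements farther upstream, among them the well-known serum response element of Fos, lie outside this window and were not searched. The TATAAA box of Fos lay 33 to 28 bases before the start, and 12.4% of all windows held one. These are matches of letters, not measured binding.

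Of the 9 genes, 6 were higher in the knockout-labelled libraries, 0 were lower and 3 were not called (edgeR quasi-likelihood test, adjusted p under 0.05 over all genes tested). Among all 16471 genes, 28.7% were higher and 25.1% lower. DESeq2 called 5 members higher (29.7% of all genes), limma-voom 6 (28.8%) and limma on log2(FPKM + 1) 6 (28.7%). Members called lower numbered 0 by edgeR at an unadjusted p under 0.05 as well, 0 by DESeq2 (24.9% of all genes), 0 by limma-voom (26.6%) and 0 by limma on FPKM (25.4%). The groups did not overlap for the same 6 members, a pattern shown by 31.9% of all genes in the higher and 30.4% in the lower direction. The median log2 fold change was 1.17 over the 9 members and -0.029 over all genes tested. Batf, Fosl1, Junb and Jun were called in each of the 16 alternative fits, whereas the calls of Fos and Fosb depended on the fit.

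**Figure D1:**
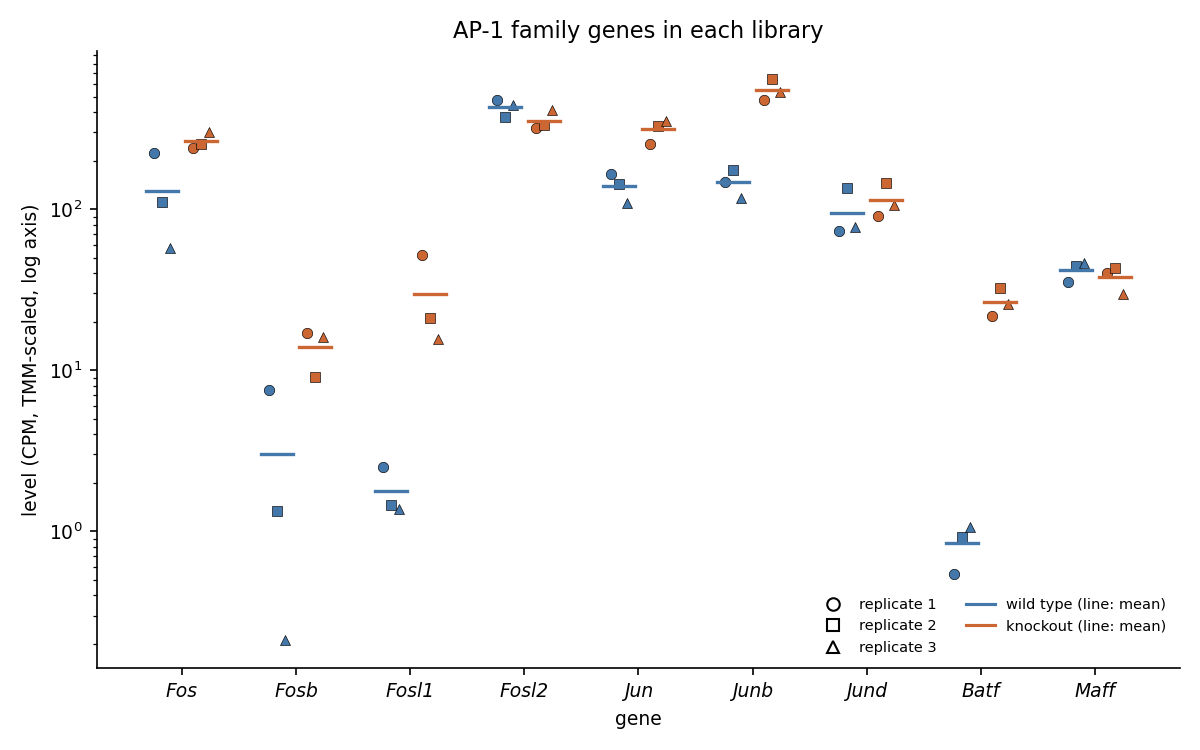
Level of each AP-1 gene in every library, in TMM-scaled CPM on a log axis (3 libraries per group), with marker shapes for the replicate number and a line at each group mean. The groups do not overlap for Fos, Fosb, Fosl1, Jun, Junb and Batf, and overlap for Fosl2, Jund and Maff.

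Among the Jun genes, the shared partners of the family, Junb differed most. It stood at 146, 176 and 117 CPM in wild type replicates 1 to 3, against 477, 644 and 532 CPM in the knockout-labelled libraries. Every knockout-labelled library was well above every wild type library. The mean rose from 147 ± 29.3 to 551 ± 85.5 CPM (SD, n = 3 each), a log2 fold change of 1.91 ± 0.26 by edgeR (adjusted p = 0.000121). Junb (ENSMUSG00000052837, chromosome 8, 84974484 to 84978718, minus strand, mm10) overlaps at its 3′ end with Prdx2, a peroxiredoxin gene on the other strand. Prdx2 moved the opposite way, from 407 ± 92.6 to 191 ± 65.5 CPM (edgeR adjusted p = 0.0104). The strand setting of the counting is not stated, so reads of the shared stretch cannot be told apart.

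Jun, the founding member and a target of JNK, was measured at 165, 144 and 109.8 CPM in the wild type, against 256, 330.3 and 354 CPM in the knockout-labelled libraries. All of the latter lay above the highest wild type library. The mean rose from 139.6 ± 27.8 to 313 ± 51.5 CPM (log2 fold change 1.17 ± 0.25 with an edgeR adjusted p = 0.00221), and the fold had a 95% interval of 1.54 to 3.28. Jun (ENSMUSG00000052684, chromosome 4, 95049034 to 95052222, minus strand) has 1 exon, as do the coding transcripts of Junb and Jund. Its antisense gene Junos, which overlaps the 5′ end of Jun, had 55, 35 and 54 counts in the wild type, against 714, 594 and 867 in the knockout-labelled libraries. Jun had 3022, 2359 and 2070 counts and 4512, 5055 and 5718 counts in the same order, so both genes of the pair were higher, and without strand their shared reads cannot be told apart.

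Jund, the Jun gene known for steady expression and for restraining growth, did not pass the test. Its wild type levels were 72.9, 136 and 77.3 CPM and its knockout-labelled levels 90.8, 144 and 106 CPM. The groups overlapped, and replicate 2 was the highest of each. The log2 fold change was 0.26 ± 0.28 (edgeR adjusted p = 0.471), with a fold interval of 0.773 to 1.85, both from the fit without pairing. Jund was higher in the knockout-labelled library of each same-numbered pair, and with the replicate block its log2 fold change was 0.29 (edgeR adjusted p = 0.145), still not called. Jund (ENSMUSG00000071076) lies on the same chromosome as Junb, at 70698949 to 70700616 on the plus strand, with 14273867 bases between them, and overlaps an antisense gene, Gm11175, that had 0 counts in every library.

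The Fos genes showed several patterns. Fosl1 encodes Fra-1, a protein linked to wound edges and cell migration, and was low in the wild type. It stood there at 2.51, 1.47 and 1.38 CPM, against 52.3, 21 and 15.6 CPM in the knockout-labelled libraries. Knockout replicate 1 was far above its fellows, and even the lowest of them was above all wild type libraries. The log2 fold change was 4.05 ± 0.49 (edgeR adjusted p = 4.35e-05), and 3.36 without knockout replicate 1. That library had the lowest summed macrophage markers of its group (9990 CPM, against 15268 and 18773 CPM) and the lowest summed fibroblast markers (3666 CPM, against 7328 and 9517 CPM). Its summed keratinocyte markers were 11863 CPM, against 12906 and 4673 CPM in knockout replicates 2 and 3. The part of these markers in the Fosl1 level was not tested. Fosl1 (ENSMUSG00000024912, chromosome 19, 5447703 to 5455945, plus strand) overlaps Ccdc85b on the other strand, which had 29.1 ± 6.41 and 25.3 ± 8.38 CPM and was not called.

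Fos, the prototype immediate early gene, was at 222, 111 and 57.7 CPM in the wild type, against 241, 255 and 303 CPM in the knockout-labelled libraries. The wild type libraries spanned 3.84-fold and the others 1.26-fold, and wild type replicate 1 nearly reached knockout replicate 1. The mean rose from 130.2 ± 83.6 to 267 ± 32.6 CPM, a log2 fold change of 1.03 ± 0.40 by edgeR (adjusted p = 0.0489). Without wild type replicate 1 the log2 fold change was 1.66 (edgeR adjusted p = 0.00229). Fos was not called without wild type replicate 2 (0.93, edgeR adjusted p = 0.134) or 3 (0.69, 0.125), nor without knockout replicate 2 (1.07, 0.0755) or 3 (0.94, 0.115). Fos lies at chromosome 12, 85473890 to 85477273 (ENSMUSG00000021250, plus strand).

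Fosb, a close relative of Fos with the same kind of transient induction, had the lowest mean FPKM of the 9 in both groups. Its counts were 138, 22 and 4 in the wild type, against 300, 139 and 259 in the knockout-labelled libraries. The corresponding levels were 7.53, 1.34 and 0.212 CPM and 17, 9.08 and 16 CPM. The wild type spanned 35.5-fold with replicate 1 on top, as for Fos, and wild type replicate 1 came close to knockout replicate 2. The log2 fold change was 2.21 ± 0.80 by edgeR (adjusted p = 0.0377). It was 4.20 without wild type replicate 1 (edgeR adjusted p = 0.000436). Fosb was not called without wild type replicate 2 (1.85, edgeR adjusted p = 0.121) or without knockout replicate 1 (2.06, 0.159), 2 (2.45, 0.0753) or 3 (2.11, 0.0838). Fosb lies at chromosome 7, 19302696 to 19310051 (ENSMUSG00000003545, minus strand).

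Wild type replicate 1 was the highest of its group for 5 of the 9 members, namely Fos, Fosb, Fosl1, Fosl2 and Jun. The zinc finger gene Egr1, looked at after these values were seen, was also highest there, with 103, 43.1 and 27.2 CPM in the wild type, against 44.5, 74.9 and 65 CPM in the knockout-labelled libraries. Egr1 was not called (log2 fold change 0.092 ± 0.42, edgeR adjusted p = 0.867). Of 30 immediate early genes outside the family, 9 were highest in wild type replicate 1, 16 in replicate 2 and 5 in replicate 3, against 37.4%, 32.6% and 30.0% of all genes tested.

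Fosl2, which encodes Fra-2, had the most reads of the family in the wild type, at 476, 372 and 445 CPM. The knockout-labelled libraries had 319, 331 and 411 CPM, and the groups overlapped. The log2 fold change was -0.29 ± 0.24 (edgeR adjusted p = 0.350), with a fold interval of 0.565 to 1.19. Fosl2 (ENSMUSG00000029135) lies at chromosome 5, 32135801 to 32157842, on the plus strand. Its gene model of 9680 bases is the longest of the 9, which raises its reads relative to its level per length.

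Batf encodes a partner of Jun proteins known from T cells, B cells and dendritic cells, and had the largest log2 fold change of the 9. Its counts were 10, 15 and 20 in the wild type, against 383, 499 and 415 in the knockout-labelled libraries. In CPM these were 0.546, 0.917 and 1.06, against 21.7, 32.6 and 25.7, with a wide gap between the groups. The log2 fold change was 4.97 ± 0.33 (edgeR adjusted p = 6.86e-07). In the same libraries dendritic and Langerhans cell markers were higher for 6 of 7 genes tested. Their summed levels were 32.2 to 38.5 CPM in the wild type and 166 to 288 CPM in the others. The most abundant was Cd74, alone at 20.2 ± 2.27 and 155 ± 52.6 CPM, and the Langerhans cell marker Cd207 had 0 counts in the wild type. Summed macrophage markers were 169 to 186 CPM in the wild type and 9990 to 18773 CPM in the others. Of 8 T cell markers 2 were higher and 3 lower (28.7% and 25.1% among all genes tested), with summed levels of 14 to 31.1 and 11.7 to 17.6 CPM. The part of these markers in the Batf level was not tested. Batf (ENSMUSG00000034266, chromosome 12, 85686669 to 85709087, plus strand) lies 209395 bases beyond Fos on the same chromosome.

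Maff, a small Maf gene induced by stress and cytokines in many cell types, was at 35.2, 44.7 and 46.5 CPM in the wild type, against 40.4, 43 and 29.7 CPM in the knockout-labelled libraries. The groups overlapped over much of their range. The log2 fold change was -0.16 ± 0.22 (edgeR adjusted p = 0.564), with a fold interval of 0.637 to 1.26. Maff (ENSMUSG00000042622) lies at chromosome 15, 79346621 to 79359076, on the plus strand.

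**Figure D2:**
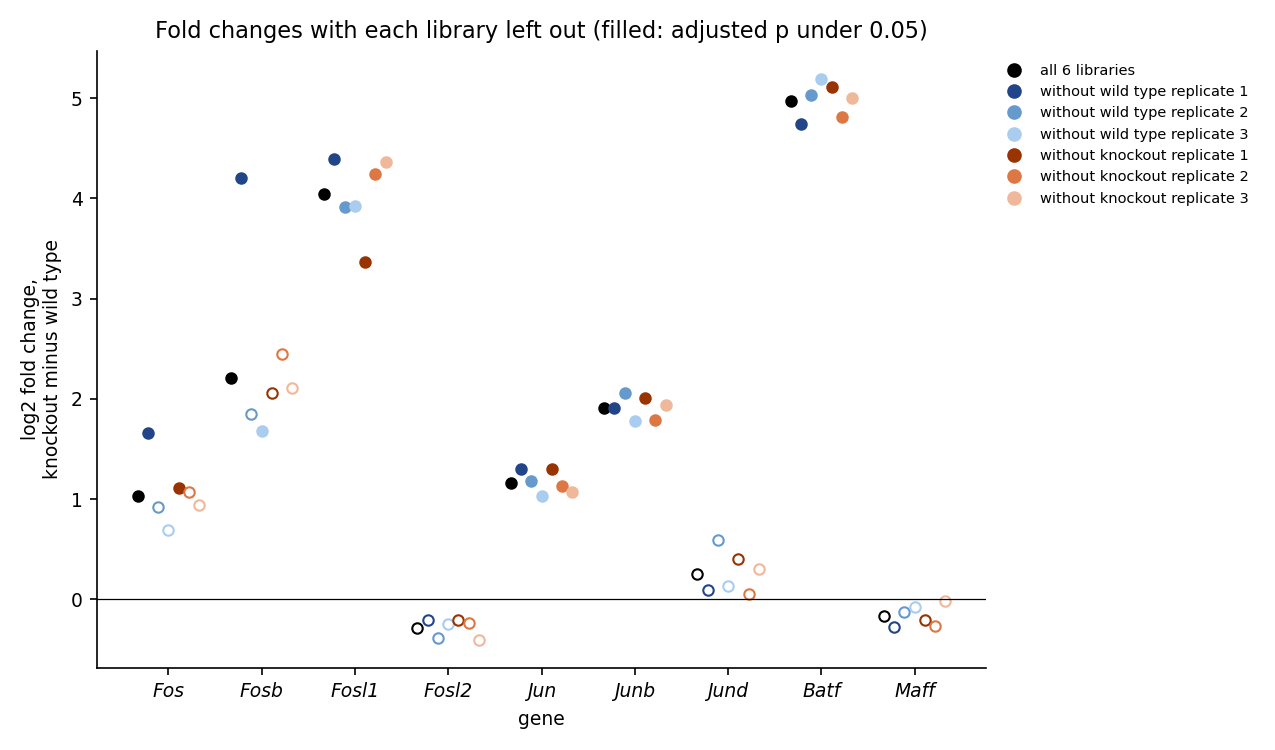
Log2 fold change of each AP-1 gene (knockout minus wild type) with all 6 libraries and with each library left out in turn, filled where the adjusted p is under 0.05. Batf, Fosl1, Jun and Junb stay filled throughout, while Fos and Fosb lose the call in 4 of the 6 fits with a library left out.

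Levels of different genes were compared per length, on the deposited FPKM scale (fragments per length of the gene and size of the library). In the wild type the order of mean FPKM was Junb (62.2 ± 12.8), Jund (55.9 ± 21.3), Fos (53.7 ± 33.7), Fosl2 (43.4 ± 4.82) and Jun (42.7 ± 8.1), and each of these overlapped its neighbour. Maff (15.9 ± 2.47) stood apart below them, and Fosl1 (1.02 ± 0.342), Batf (0.585 ± 0.191) and Fosb (0.468 ± 0.604) were lowest. The range of Fosb overlapped those of both Batf and Fosl1. In the knockout-labelled libraries Junb (238 ± 36.2) stood alone on top. Fos (113 ± 14.8) and Jun (97.7 ± 16.6) followed and overlapped, Jun also overlapped Jund (67.8 ± 16.1), and Fosl2 (36.4 ± 5.51) came next. Batf (18.8 ± 3.85), Fosl1 (17.2 ± 11.4) and Maff (14.4 ± 2.59) overlapped one another in turn, so that Batf and Fosl1 stood near Maff there. Fosb (2.24 ± 0.695) was again the lowest.

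The summed FPKM of the 9 genes was 306, 304 and 217 in the wild type, against 536, 659 and 622 in the knockout-labelled libraries. Junb made up 19.9%, 24.9% and 23% of that sum in the wild type, against 38.3%, 42% and 37.3%. For Fosl2 the shares were 15.4%, 12.5% and 20.7%, against 6.08%, 5.13% and 6.87%. These shares are descriptions and were not tested, and the share of a gene depends on the other members as well as on its own level.

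Jun had nearly the same mean share in both groups, at 15.5 ± 0.756% and 16.1 ± 1.65%. The share of Jund was 20.3 ± 6.39% in the wild type and 11.1 ± 1.62% in the knockout-labelled libraries. The share of Fos was 18.7 ± 9.66% and 18.7 ± 2.29%, with most of the spread in the wild type. The ratio of Junb to Jund FPKM was 1.46, 0.941 and 1.1 in the wild type, against 3.8, 3.24 and 3.62, without overlap. The ratio of Fosl1 to Fosl2 was 0.0299, 0.0224 and 0.0176, against 0.930, 0.360 and 0.215, also without overlap. The Jun genes together made up 58.4 ± 8.13% of the family in the wild type and 66.4 ± 3.8% in the knockout-labelled libraries, and these ranges overlapped.

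**Figure D3:**
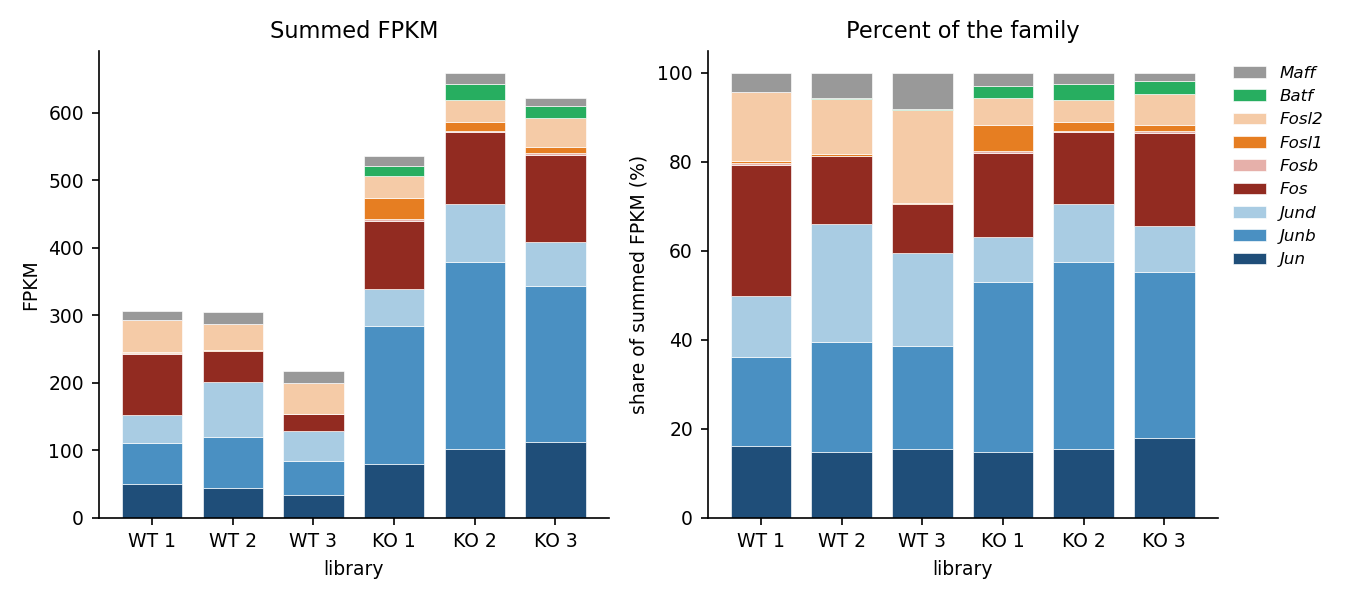
Summed FPKM of the 9 AP-1 genes and the percent of that sum taken by each gene, in each library (WT wild type, KO labelled knockout). Junb takes 19.9% to 24.9% of the wild type sums and 37.3% to 42% of the others, while Fosl2 takes 12.5% to 20.7% and 5.13% to 6.87%.

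Genes whose profile over the 6 libraries was most like each member were taken among 11178 coding genes, by the root mean square distance of log2(CPM + 1) centred on the wild type mean. Nearest to Junb were Creld2 (0.0473) and Dnajb11 (0.0721), and nearest to Jun were Tbc1d10c (0.106) and Plpp5 (0.112). Nearest to Batf were Kctd12 (0.0855) and Gypc (0.129), and nearest to Fosl1 were Noct (0.203) and Bcl2l15 (0.229). The genes nearest to Fos, Tmem140 (0.285) and Cyp11a1 (0.292), and to Fosb, Adgrg3 (0.535) and Nkd2 (0.543), were farther away. Fosl2 was nearest to Mynn (0.0608) and Tubgcp2 (0.0616), Jund to Ebp (0.0963) and Snf8 (0.101), and Maff to Pabpc1 (0.0643) and Prelid3b (0.0737). A small distance is not an equal fold, since the added 1 shrinks folds of low genes. The log2 fold changes were 4.03 for Kctd12 and 7.64 for Gypc, against 4.97 for Batf. They were 3.58 for Noct and 5.31 for Bcl2l15, against 4.05 for Fosl1. Cyp11a1 was not called (edgeR adjusted p = 0.109). Such a distance over 6 libraries in 2 groups is a description of these libraries.

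The other basic leucine zipper genes that pair with AP-1 proteins or compete for their sites were followed as a list of 19, of which 18 were tested and Nrl was too low. Of these, 12 were higher and 3 lower (66.7% and 16.7%, against 28.7% and 25.1% of all genes tested), with a median log2 fold change of 0.95. Batf2, with 1, 0 and 3 wild type counts, passed the filter through the knockout-labelled libraries and could only come out higher. Batf3 (14, 8 and 4 wild type counts) also needed those libraries to pass. Mafa needed the wild type libraries, with 7, 17 and 9 counts in the others. Both shares are therefore set in part by the filter. Jdp2, a Jun dimerization partner and repressor, went from 0.709, 0.978 and 2.44 CPM in the wild type to 54.8, 68.8 and 83.1 CPM, a log2 fold change of 5.63 ± 0.43 (edgeR adjusted p = 1.59e-06). Maf, a large Maf factor known from macrophages and T cells, went from 45, 46.6 and 51.3 CPM to 1071, 1238 and 1346 CPM, a log2 fold change of 4.68 ± 0.29 (edgeR adjusted p = 4.43e-07). Neither gene overlapped between the groups. Macrophage markers were higher for 10 of 10 genes in these libraries, and their part in the Maf level was not tested.

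The stress-induced Atf3, which pairs with Jun proteins, rose from 5.61 ± 0.733 to 61.9 ± 7.5 CPM. The Batf relatives Batf3 and Batf2 rose by 2.85 ± 0.53 and 3.68 ± 0.79 on the log2 scale, from low wild type levels of 0.488 ± 0.276 and 0.0712 ± 0.0809 CPM. The cap'n'collar factors and their Bach relatives pair with small Maf proteins such as Maff. Among them Nfe2l2, which encodes the antioxidant regulator NRF2 (log2 fold change 1.39 ± 0.21), Nfe2 (2.02 ± 0.35) and the repressor gene Bach1 (2.26 ± 0.27) rose, while Bach2 fell (-2.22 ± 0.25). Nfe2l1 (-0.046 ± 0.22) and Nfe2l3 (-0.36 ± 0.37) were not called.

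Smaller rises were called for Atf4 (log2 fold change 0.73 ± 0.22), Mafg (0.64 ± 0.23) and Atf2 (0.62 ± 0.18), and a fall for Atf7 (-0.78 ± 0.30), whose groups overlapped. Each of these 4 lost its call when some single library was left out. Mafa, a large Maf factor, fell from 9.4 ± 0.731 to 0.688 ± 0.375 CPM (log2 fold change -3.77 ± 0.42 with an edgeR adjusted p = 2.34e-05). Among the small Maf genes, Mafg was called, and Mafk (0.23 ± 0.19) and Maff were not; the difference between them was not tested.

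**Figure D4:**
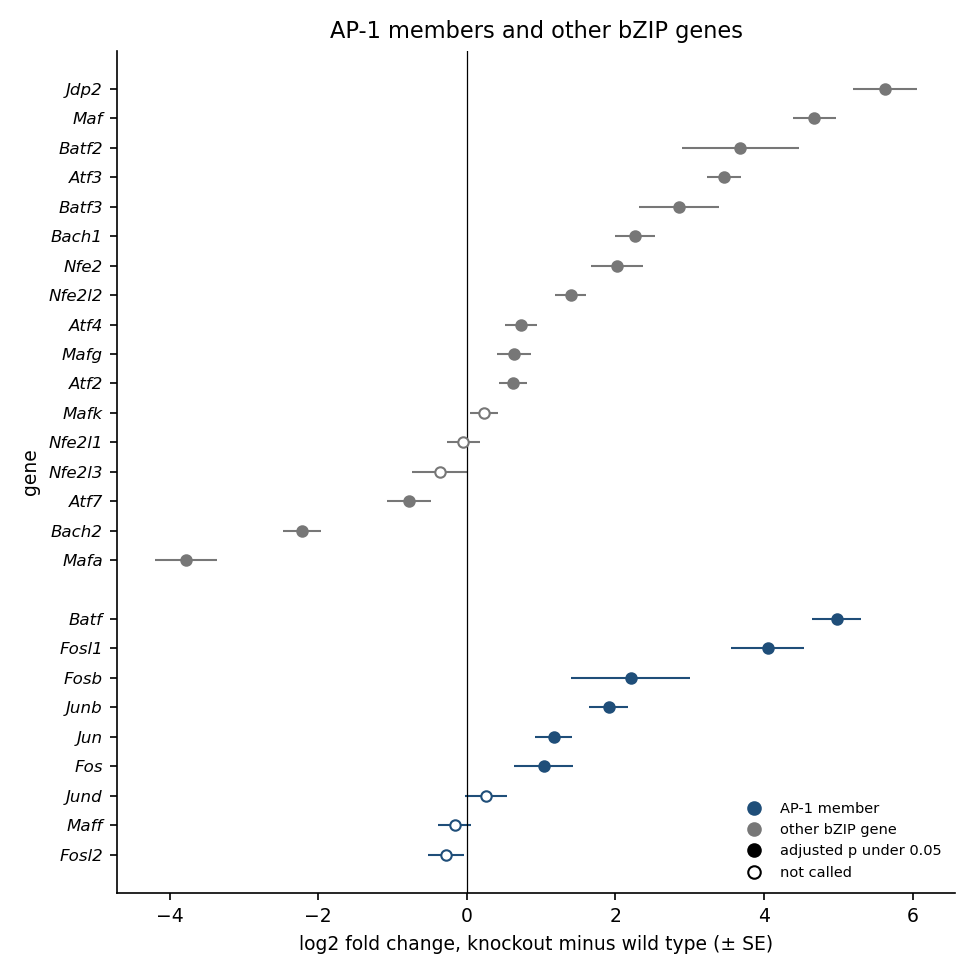
Log2 fold change (knockout minus wild type, ± SE, 3 libraries per group) of the 9 AP-1 members and other basic leucine zipper genes, filled where the edgeR adjusted p is under 0.05. Among the members 6 are filled to the right of 0 and 3 are open near 0, and among the other genes Mafa, Bach2 and Atf7 are filled to the left.

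Upstream of AP-1 lies the MAP kinase cascade. Of 25 genes tested 8 were higher and 4 lower, with a median log2 fold change of 0.31. These are 32% and 16% of the list, against 28.7% and 25.1% of all genes, so the higher share was near that of all genes. Map3k8, which encodes the kinase Tpl2 of inflammatory signalling, rose from 19.8 ± 4.12 to 93.2 ± 31.4 CPM. Map2k1, which encodes MEK1, rose from 63.9 ± 6.0 to 199 ± 25.9 CPM, and the p38 beta gene Mapk11 from 3.47 ± 1.06 to 16.4 ± 1.46 CPM. Map2k6, which encodes an activator of p38, fell from 19.8 ± 3.33 to 3.74 ± 1.55 CPM. RNA levels do not show kinase activity.

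MAP kinase phosphatases switch these kinases off, and several are themselves immediate early genes. Of 10 tested 5 were higher and 0 lower by edgeR (0 also at an unadjusted p under 0.05, and 0 by DESeq2, limma-voom or limma on FPKM), where 28.7% of all genes were higher and 25.1% lower. Dusp1 stood at 64.9, 61.4 and 40.5 CPM in the wild type, against 354, 382 and 461 CPM in the knockout-labelled libraries, without overlap (log2 fold change 2.84 ± 0.27). Dusp5 and Dusp6, which act on ERK, rose by 2.49 ± 0.25 and 1.58 ± 0.23 on the log2 scale.

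Serum response factor and its cofactors, which regulate Fos transcription, were mostly not called. Of 6 genes 1 was higher (16.7%, against 28.7% of all genes). By edgeR 0 were lower (2 at an unadjusted p under 0.05, 1 by limma-voom, 0 by DESeq2 or limma on FPKM), whereas with the replicate block 2 were lower. Of all genes 25.1% were lower by edgeR, 24.9% to 26.6% by the other methods and 29.1% with the replicate block. The higher gene was Elk3, an ETS factor also known from endothelial cells, which rose from 5.4 ± 0.422 to 120.2 ± 28.7 CPM. The summed endothelial markers stood at 4.62 to 6.77 CPM (wild type) and 189 to 355 CPM (knockout-labelled libraries). Pecam1 made up most of the knockout-labelled sums, with group means of 1.2 ± 0.403 and 250.5 ± 84.1 CPM for that gene alone. This endothelial sum therefore mainly follows Pecam1, and the part of the markers in the Elk3 level was not tested.

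The list of Jun and Fos protein turnover held 8 genes, of which Rfwd2 was not found under that symbol. Of the other 7 genes 2 were higher and 0 lower by edgeR. Lower genes were also 0 at an unadjusted p under 0.05, and 0 by DESeq2, limma-voom or limma on FPKM. The higher share of 28.6% was near that of all genes (28.7%). Of all genes 25.1% were lower by edgeR and 24.9% to 26.6% by the other methods, and 7 genes are too few to read 0 against that. Trib1, which encodes an adaptor of the COP1 ubiquitin ligase, rose from 38.5 ± 3.63 to 114 ± 21.4 CPM. Itch, which encodes a ubiquitin ligase for Jun proteins, rose from 57.4 ± 4.63 to 84.8 ± 16.1 CPM (edgeR adjusted p = 0.0423). Itch was not called without knockout replicate 3 (edgeR adjusted p = 0.141) or without wild type replicate 1 (0.0966), 2 (0.149) or 3 (0.0811).

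Immediate early genes outside the family were higher for 23 of 30 tested and lower for 2, with a median log2 fold change of 2.03. These are 76.7% and 6.67% of the list, against 28.7% and 25.1% of all genes, and Egr4 was too low to test. Ptgs2, with 9, 8 and 1 wild type counts, passed the filter through the knockout-labelled libraries and could only come out higher. Klf2, a zinc finger factor of endothelial cells and leukocytes, stood at 5.02, 5.44 and 4.4 CPM in the wild type, against 133, 145 and 134 CPM in the knockout-labelled libraries. Ptgs2, which encodes cyclooxygenase 2, rose from 0.344 ± 0.252 to 112 ± 35.8 CPM, and Socs3, a feedback inhibitor of cytokine signalling, from 28.1 ± 4.72 to 387 ± 33.1 CPM. Egr3, a relative of Egr1, fell from 111 ± 8.87 to 24.2 ± 5.13 CPM. Macrophage, neutrophil and endothelial markers were higher in the same libraries, and their part in these values was not tested.

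Known targets of AP-1 in wounding and cell invasion were higher for 21 of 24 tested and lower for 1 (87.5% and 4.17%, against 28.7% and 25.1% of all genes). Mmp1a and Mmp1b of the list were too low to test. Csf2, Il6 and Mmp3 had 0 counts in the wild type. Genes this low there passed the filter through the knockout-labelled libraries and could only come out higher. The count of 21 is therefore set in part by the filter. The median log2 fold change was 4.85, and 4.58 with the 3 genes that had no wild type count set at a floor of 3 counts over the group. Plaur, the urokinase receptor gene, stood at 1.31, 0.856 and 1.75 CPM in the wild type, against 177, 216 and 202 CPM in the knockout-labelled libraries. Ccl2, a monocyte chemokine gene, and Spp1, which encodes osteopontin, each had 2 counts over all wild type libraries, and stood at 237, 331 and 277 CPM and at 2001, 3885 and 2782 CPM in the others. Ccnd1, the cyclin D1 gene, went against the list and fell from 149.6 ± 46.4 to 26.1 ± 3.36 CPM. Macrophages and fibroblasts express several of these genes; the part of their markers in these values was not tested.

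A list of 21 keratinocyte genes, several of them known AP-1 targets, went both ways, with 9 lower, 8 higher and 4 not called. The shares were 42.9% lower and 38.1% higher, against 25.1% and 28.7% of all genes, and the median log2 fold change was 0.031. S100a8, S100a9 and Sprr3 had almost no wild type counts (8, 10 and 2 over the group). They passed the filter through the knockout-labelled libraries and could only come out higher. The count of 8 higher is therefore set in part by the filter. Casp14, a protease gene of the cornified layer, fell from 637 ± 73.6 to 40.2 ± 22 CPM, and Lor and Krt10, which encode loricrin and a suprabasal keratin, fell as well (log2 fold changes -5.05 ± 0.53 and -3.76 ± 0.54). Higher was S100a8, an alarmin gene also expressed by neutrophils, with 0, 0.245 and 0.212 CPM in the wild type, against 1082, 3245 and 2147 CPM in the knockout-labelled libraries. The summed neutrophil markers were 1.59 to 3.06 and 939.8 to 1754 CPM, and their part in the S100a8 level was not tested.

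**Figure D5:**
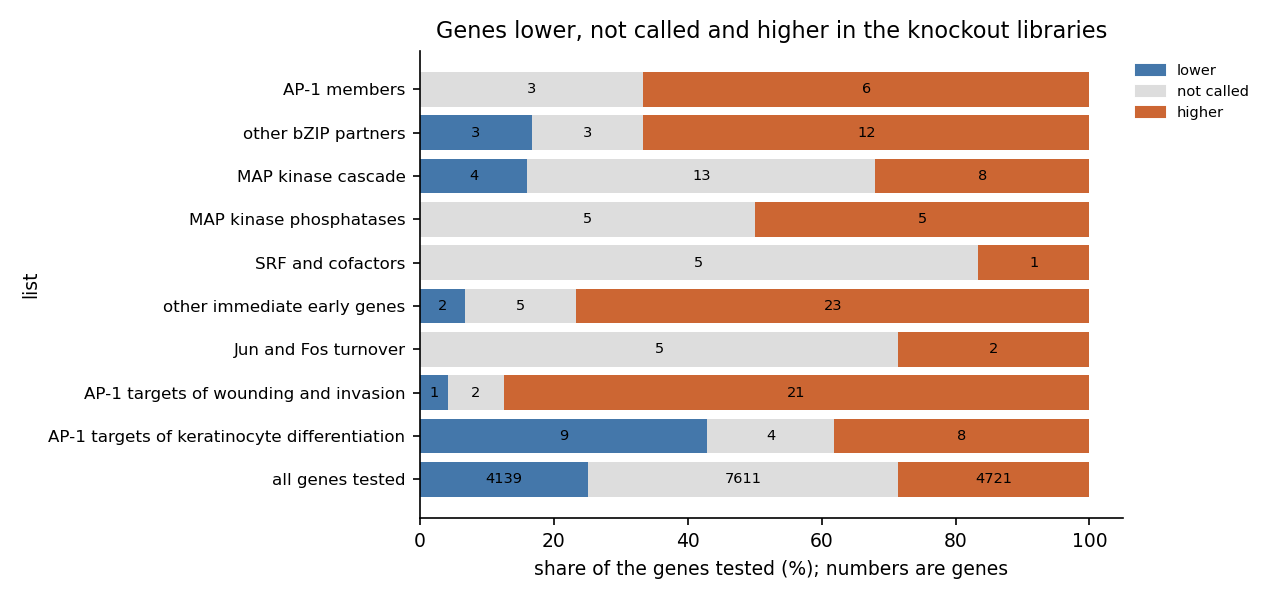
Share of the tested genes of each list that were lower, not called or higher in the knockout-labelled libraries (edgeR adjusted p under 0.05), beside all 16471 genes tested. The AP-1 genes have 6 higher and 0 lower, the wounding list 21 higher and 1 lower, and the keratinocyte list 8 higher and 9 lower.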

How the data were processed

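The authors deposited whole-number counts and FPKM values per gene for the 6 epidermis libraries, 3 per group. Alignment with HISAT2 2.0.5 to mm10 and counting with featureCounts 1.5.0-p3 are listed in the submitters' processing notes; annotation release and strand setting are not stated. Counts per length divided by FPKM gave 1 constant per library, at 0.891 to 1.17 of its total count.

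Counts were tested with edgeR 4.0.16 in R 4.3.3 (TMM factors, expression filter with minimum count 10 and minimum total 15, robust quasi-likelihood test, genotype alone in the model) and Benjamini-Hochberg adjustment over all 16471 genes. Genes with almost no wild type counts passed the filter through the knockout-labelled libraries and could only be called higher, in lists and markers alike. Levels are TMM-scaled CPM as mean ± SD. The SE of a log2 fold change is its absolute value divided by the root of F, and fold intervals are at 95%. Positions are from the deposited table; exons and overlaps are from GENCODE M21. The fit was also run on simulated counts in which few genes were changed. Scaling where many genes differ, as here, was not tested by it.

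The members and gene lists were chosen with earlier results of these data known. The text names the 9 members, the tested zipper partners (1 is counted in its list but not reported here), from each other list the 3 most significant genes in the direction most of its calls took and the most significant opposite one, and the 2 genes nearest to each member with at least 5 CPM.

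Libraries with the same replicate number deviated together (correlations of deviations from group means 0.232, 0.339 and 0.176, against -0.323 to 0.0734 for other pairs), which met the rule for taking the numbers as pairs, although the labels do not say what they mark. All values in the report are from the fit without pairing unless the replicate block is named. Libraries of 1 group differed beyond sampling noise, with chi-square per degree of freedom of 32.9 to 90.3. Alternatives were RLE and library-size scaling, no filter, a filter at 1 CPM in 3 libraries, DESeq2 1.42.0, limma 3.58.1 (voom, and trend on log2(FPKM + 1) and log2(FPKM + 0.1)), the replicate block, each library left out, and both libraries numbered 1 left out.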

Additional observations from a re-analysis of the deposited data

How the results depend on the processing

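Of the 144 recomputed member fold changes, 131 kept their direction and side of the threshold, and 13, all of Fos or Fosb, kept their direction and lost the call. Members called higher numbered 4 to 6 with single libraries left out, where 25.0% to 29.5% of all genes tested were higher. Fos was not called with library-size scaling (log2 fold change 0.85) or the stricter filter (1.04), and leaving out single libraries gave 0.69 to 1.66. Fosb was not called with library-size scaling (2.02), without a filter (2.20) or with DESeq2 (2.25), and leaving out single libraries gave 1.68 to 4.20. The median log2 fold change over all genes was -0.18 with library-size scaling, against -0.029 with TMM. On log2(FPKM + 1) the log2 fold changes of Batf and Fosl1 were 3.64 and 3.01, since a pseudocount shrinks folds of low genes. Other causes were not tested.

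The replicate block changed no call of a member or named gene; the 1 list count that it moved by over 1.5 times was that of lower genes of serum response factor and cofactors, from 0 to 2. Smaller moves were in the MAP kinase cascade (higher 8 to 10, lower 4 to 6), other immediate early genes (higher 23 to 26) and keratinocyte genes (higher 8 to 9). With the block 30.9% of all genes tested were higher and 29.1% lower, against 28.7% and 25.1% without it. The count for serum response factor and cofactors was 1 with library-size scaling, without a filter and with limma-voom, and 0 to 2 with single libraries left out. Turnover genes called higher went from 2 to 1 with library-size scaling, without a filter and without both libraries numbered 1, and were 1 to 2 with single libraries left out. Turnover genes called lower went from 0 to 1 without both libraries numbered 1, and were 0 to 1 with single libraries left out. Wounding genes called lower went from 1 to 2 without both libraries numbered 1, and were 1 to 2 with single libraries left out. Among all genes tested, the share over these fits was 17.3% to 30.9% for higher and 14.9% to 29.1% for lower. Nfe2l1, which was not called, had log2 fold changes of -0.21 to 0.089 with single libraries left out and 0.086 without both libraries numbered 1, so that its sign changed. Of 639 fold changes of other named genes, 607 kept direction and side, and 30 lost the call.

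Shares computed on CPM are not divided by gene length and so differ by construction. In the wild type they were 43.9% for Fosl2, 14% for Jun, 14.8% for Junb, 9.74% for Jund, 0.177% for Fosl1 and 0.0884% for Batf. In the knockout-labelled libraries they were 20.8% for Fosl2, 15.6% for Fos, 0.839% for Fosb, 18.3% for Jun, 32.2% for Junb, 6.63% for Jund and 1.56% for Batf. With 3 libraries per group the fold intervals of Jund, Fosl2 and Maff limit what could be detected.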
